A study of Mus musculus with 18 samples.

Results

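Spinal motor neurons of healthy young adult mice were compared at 120 and 60 days of age. The arrays were chosen by their sample titles: 3 arrays titled as controls of 120 days and 3 titled as controls of 60 days, 6 of the 18 arrays in the series. All 6 animals were non-transgenic littermates of mice that carry the human SOD1 transgene with the G93A mutation, and they received no treatment that the labels mention. Each array held the RNA of 1 animal, from 1000 lumbar motor neurons cut out by laser from frozen sections of 10 µm stained with toluidine blue. The neurons were picked by this stain, without a marker of motor neurons, and the labels state neither strain nor sex. The remaining arrays held 3 controls of 90 days and 9 G93A animals of 60, 90 and 120 days, and they served to estimate the spread between animals and to set the control values in context.

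Motor neurons are among the largest cells of the nervous system and maintain an axon that runs out of the spinal cord to muscle. Firing and transport along that axon use much ATP, made mostly in mitochondria by the respiratory chain and the ATP synthase, and the cells depend on chaperones, proteasomes and lysosomes to clear damaged protein. In the spinal cord they lie beside oligodendrocytes, which wrap axons in myelin, and beside astrocytes, microglia and interneurons, whose processes reach a laser-cut profile.

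Signals were higher at 120 days for several subunits of the ATP synthase, ribosomal proteins, proteasome subunits, chaperonins, lysosomal proteins and ferritin. Except for ferritin, these families lost calls when single arrays were left out or with a measure of RNA quality, the Gapdh ratio described below, as covariate. That covariate left 3 ATP synthase genes, 1 chaperonin or prefoldin gene and 0 lysosomal genes called higher. Other probe sets of genes called higher had the opposite sign in 50.2% of cases, against 46.3% over all genes. Signals were lower for the sorting nexin Snx6 and the kinase Mink1, which held without each of the 6 arrays. They were lower for Jund, which held likewise but not with that covariate. They were also lower for the neurofilament relative Ina, the glutamate receptor subunits Gria2 and Grin2a and the dynein adaptor Bicd2, calls that each depended on single arrays and on scaling, as given with their values. Of the 10051 genes tested, 675 passed at an adjusted p below 0.05 in limma (6.72%), of which 391 were higher at 120 days (3.89%) and 284 lower (2.83%). Probe sets are the oligonucleotide groups from which each signal is read, and most but not all carry 1 gene symbol. At the level of single probe sets, 1112 of 16565 passed (6.71%), 641 higher (3.87%) and 471 lower (2.84%). Without adjustment, 4066 probe sets had p below 0.05 (24.5%). Differences are given as log2 of the 120-day over the 60-day signal with the standard error of the fit (n = 3 animals per age), where 1 is a doubling, and signals are the deposited values on a linear scale. The precision was limited by the number of arrays: the median standard error was 0.69.

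The identity of the captured cells was checked on marker genes. Nefl, the light neurofilament chain, had signals of 22030, 25382 and 17125 on the 60-day arrays and 13680, 26846 and 12990 on the 120-day arrays, so the ages overlapped (log2 difference -0.34 ± 0.48, adjusted p = 0.701, with the sign turned under median centring, 0.12, and with the Gapdh covariate described below, 0.42). The summed signal of 22 motor neuron markers was 21216 to 32162 at 60 days and 16800 to 32881 at 120 days (exact permutation p = 0.8, two-sided). Nefl is among these 22 markers and weighs heavily in a sum of linear signals, so the sum is not a separate check. Myelin and glial transcripts were present at both ages and not at equal levels: oligodendrocyte markers summed to 9094 to 19575 at 60 days and 21886 to 39996 at 120 days, and astrocyte markers to 5176 to 6968 and 8111 to 11524. Erythroid markers went the other way, from 347 to 475 down to 89.0 to 122. None of these 3 sums overlapped between the ages, and each reached an exact permutation p of 0.1, the smallest that 3 against 3 arrays allow. Microglial sums overlapped (2691 to 4515 and 4109 to 6737, exact permutation p = 0.3). Slc18a3, the vesicular acetylcholine transporter, and Aif1, a microglial marker, did not pass the filter on low signals and were not tested.

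Of 6 measures of RNA and array quality, 3 separated the ages and 3 did not. Gapdh has probe sets at both ends of its transcript, and their log2 ratio, 3′ over 5′, grows as RNA is degraded or shortened in amplification. It lay between 3.00 and 3.66 on the 60-day arrays and between 4.22 and 4.73 on those of 120 days. The median signal per array was 58.0 to 64.0 against 37.0 to 47.8, and the 18S ribosomal RNA signal 670 to 1015 against 350 to 471 (exact permutation p = 0.1 for each). The same log2 ratio for actin overlapped (4.88 to 7.75 against 4.62 to 8.40, exact permutation p = 0.8), as did the log2 signal of the hybridization controls (10.70 to 11.45 against 10.98 to 11.99, p = 0.3) and the share of the summed signal in the 100 strongest probe sets (25.7% to 28.7% against 22.4% to 30.9%, p = 1). The part of glial RNA and of RNA quality in the results that follow was not tested beyond the fits named here. With the Gapdh ratio as a covariate, 51 genes were higher and 18 lower, and 11.4% of the called probe sets kept their call. With the 6 control arrays alone in the fit, 137 genes were higher and 55 lower. In bulk RNA of captured profiles, fewer cells of a type and less RNA per cell cannot be told apart.

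The calls rested in part on single arrays. Leaving out 60-day array 3 lowered the counts to 215 genes higher and 95 lower, and leaving out 120-day array 1 lowered them to 205 and 140. The number of called probe sets, 1112, fell to 532 and 603 in these fits and to 736 without 60-day array 2. The lower calls also fell to 149 without 60-day array 1 and to 139 without 60-day array 2. Of 177 called genes followed through the alternatives, 82 kept their call without each of the 6 arrays, 95 lost it without at least 1 array, and 141 lost it with the Gapdh covariate. A gene given below as held without each array may still have been lost with that covariate. Examples are Jund, Eno2, Lamp1, Stmn1, Klc1 and Cct5 (adjusted p = 0.0515 to 0.28). None of the 177 changed sign under any of the 18 alternatives, which leave out the mean over a gene's probe sets. In alternatives that changed only the filter, the trend, the replicate block or the arrays outside the comparison, the sign could not change.

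The direction of the calls depended on the level of a gene and on scaling. Genes were divided into 5 equal classes of mean level. In the lowest class 0.746% were higher at 120 days and 1.79% lower, while in the highest class 11.6% were higher and 3.63% lower. The median log2 difference rose with level in parallel, from -0.57 in the lowest class to 0.25 in the highest, with -0.22 over all genes. Under quantile normalization the median over all genes was 0.03 and under median centring 0.24. The share of called genes that were higher was 57.9% as deposited, 66.9% after quantile normalization and 90.1% after centring.

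**Figure D1:**
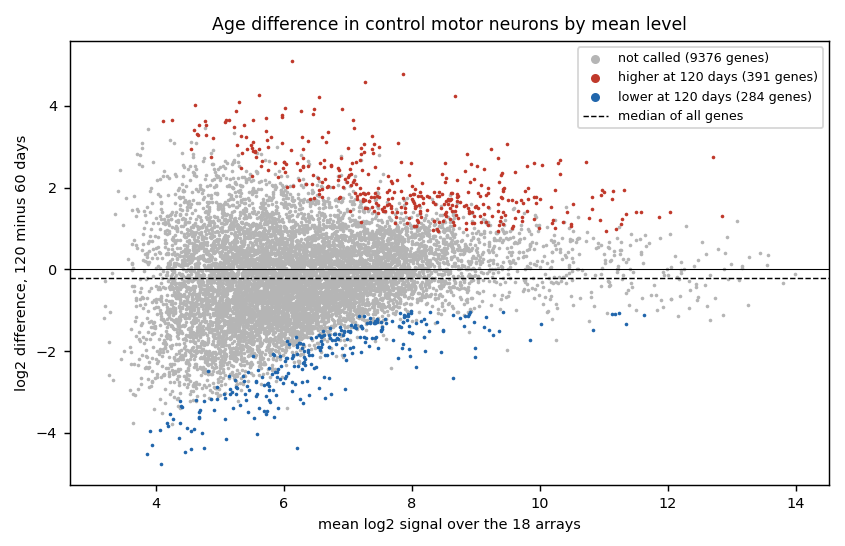
Log2 difference of control motor neurons, 120 minus 60 days, for each of the 10051 genes (vertical axis) against its mean log2 signal over the 18 arrays (horizontal axis), with the 391 genes called higher in red, the 284 called lower in blue and the median of all genes as a dashed line. Higher calls are most frequent at high mean level, with 11.6% of the highest class.

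Most called genes separated the ages on every array. The 3 arrays of 120 days lay above the 3 of 60 days for 949 genes (9.44%) and below them for 1790 (17.8%), together 2739 genes (27.3%), or 4582 probe sets (27.7%), and of the called genes 367 of 391 and 278 of 284 did not overlap. Genes called higher had median signals of 114, 241 and 381 in controls of 60, 90 and 120 days. Those called lower had medians of 176, 119 and 42.2. Of the lower genes, 114 of 284 (40.1%) had a mean signal under 30 at 120 days, and of the higher genes 88 of 391 (22.5%) had one under 30 at 60 days. Where a gene had other probe sets, these had the opposite sign in 158 of 315 cases for higher genes (50.2%) and in 51 of 139 for lower genes (36.7%), against 46.3% over all genes.

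The largest increases came from genes with low signals at 60 days. Etnk1, an ethanolamine kinase of phospholipid synthesis, had signals of 25.9, 7.4 and 36.2 at 60 days and 1043, 545 and 249 at 120 days. No array of 60 days reached the lowest array of 120 days, and Etnk1 rose by 4.77 ± 0.61 (adjusted p = 8.46e-05), although both of its other probe sets had the opposite sign. Atp6v1b2, a catalytic subunit of the vacuolar proton pump, rose from 3.9, 10.6 and 7.5 to 546, 215 and 108 (5.10 ± 0.80, adjusted p = 0.000467), with its other probe set again of opposite sign. Selenoh, a selenoprotein of the nucleolus, gave the tightest pair of groups, at 20.5, 13.8 and 12.6 against 201, 193 and 247. Its increase of 3.80 ± 0.44 had an adjusted p of 1.99e-05. Id2, an inhibitor of basic helix-loop-helix factors, read 7, 42.6 and 8.2 at 60 days and 373, 179 and 126 at 120 days (3.91 ± 0.56). Ddx5, an RNA helicase, rose by 4.59 ± 0.75 and Enah, an actin regulator of growing processes, by 4.24 ± 0.72, and 2 of the 5 other Ddx5 probe sets and the other Enah probe set had the opposite sign. The other increases of this size were Spcs3 of the signal peptidase (4.26), the homeobox gene Hoxb5 (4.22), the Ras exchange factor Sos2 (4.11), the ceramide kinase Cerk (4.01), Tceal1 (3.96), the neurotrophic factor Nenf (3.92), Rtp4 (3.89), Rmdn3 (3.88, its other probe set of opposite sign) and Lrrn1 (3.77). Of these 15 genes only Sos2 lost its call when an array was left out (3.66, adjusted p = 0.0556 without 120-day array 1). With the Gapdh covariate Atp6v1b2, Etnk1, Selenoh and Id2 kept their calls, and the others lost theirs (adjusted p = 0.0641 to 0.241).

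The largest decreases ended at low signals at 120 days. Prss44, a serine protease, had signals of 233, 278 and 235 at 60 days and 10.8, 15.7 and 10.3 at 120 days, with no overlap. It fell by 4.36 on the log2 scale (standard error 0.58, adjusted p = 9.62e-05) and kept its call under all 18 alternatives. Sos1, like Sos2 an exchange factor that activates Ras, went from 127, 126 and 98.5 down to 8.9, 2.7 and 6.1 (-4.47 ± 1.03, adjusted p = 0.0109), opposite to Sos2. The zinc finger gene Zfp189 read 57.1, 93.8 and 112 at 60 days and 6.4, 2.4 and 1.9 at 120 days (-4.78 ± 1.12), and its call was lost without 60-day array 3 (-4.57, adjusted p = 0.0519). Creb1, the cyclic AMP response factor, read 27.2, 135 and 154 against 2.9, 9 and 5.7 (-3.97 ± 1.06). Its call did not hold without 60-day arrays 2 and 3 or 120-day array 1, each left out in turn (adjusted p = 0.0873 to 0.102). Cpxm1 (-4.37), Fgf10 (-4.15), Zfp787 (-4.03, its other probe set of opposite sign) and the RNA-binding Ro60 (-3.91) also fell. With the Gapdh covariate the calls of Sos1, Zfp189, Creb1, Fgf10, Zfp787 and Ro60 were lost (adjusted p = 0.117 to 0.196). Cpxm1 lost its call with the 6 control arrays alone (adjusted p = 0.0728). The remaining decreases of this rank were Prl3c1 (-4.53), Padi3 (-4.41), the estrogen receptor Esr2 (-4.29), Il9 (-4.13), Icam4 (-4.01), Tmem263 (-3.95) and the immunoglobulin segment Iglv1 (-3.93, its other probe set of opposite sign). With the Gapdh covariate Prl3c1, Esr2, Il9, Icam4, Tmem263 and Iglv1 lost their calls (adjusted p = 0.144 to 0.486). All 7 lost their calls without 60-day array 2 or 3. Prl3c1, Padi3, Icam4 and Tmem263 also lost them without 60-day array 1 or 120-day arrays 1 or 2, Esr2 without 120-day array 1 and Iglv1 without 120-day arrays 2 or 3 (adjusted p = 0.0513 to 0.136 in all of these fits).

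Genes with strong signals at both ages gave smaller and better measured differences. A further set was therefore described, chosen after the values were seen: genes in the highest of the 5 level classes with a mean signal of at least 100 at both ages and no overlap, 203 of them higher and 70 lower. Fth1, the heavy chain of the iron store ferritin, had signals of 1927, 1337 and 3334 at 60 days and 12576, 11277 and 18755 at 120 days. It rose 6.77-fold (2.76 ± 0.38, adjusted p = 0.000148), and its other probe set had the same sign. Meg3, a long noncoding RNA of neurons, read 162, 99.3 and 174 against 1136, 892 and 961 (2.82 ± 0.42), with 1 of its 3 other probe sets of opposite sign. Oga, the enzyme that removes O-linked N-acetylglucosamine from proteins, read 122, 241 and 70.3 against 2147, 799 and 563 (2.96 ± 0.46), and 3 of its 4 other probe sets had the opposite sign. Timp2, an inhibitor of matrix metalloproteinases, rose by 2.57 ± 0.51, and 2 of its 4 other probe sets had the opposite sign.

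Among the strongly expressed genes that fell, Snx6, a sorting nexin of the retromer that retrieves cargo from endosomes, had signals of 1347, 433 and 569 at 60 days and 63.1, 199 and 102 at 120 days (-2.67 ± 0.44, adjusted p = 0.00076). Mink1, a kinase of the Ste20 family, read 711, 1203 and 1021 against 137, 326 and 221 (-2.15 ± 0.39). Ube4a, a ubiquitin chain assembly factor, read 576, 537 and 462 against 92.1, 132 and 186 (-2.00 ± 0.33). These 3 genes showed no overlap and kept their calls under all 18 alternatives, although 1 of the 2 other Snx6 probe sets had the opposite sign. Thtpa, a thiamine triphosphatase (-2.01), Ehd3, of endosomal recycling (-1.95, its other probe set of opposite sign), Lce1i (-2.16) and Gm5802 (-2.12) fell and held without each array. All of these lost their calls with the Gapdh covariate (adjusted p = 0.102 to 0.302). Map3k12, the axonal stress kinase also called DLK, was lower by the fit (-2.40 ± 0.62, adjusted p = 0.022) but lost its call without 60-day array 2 or 3 or 120-day array 1 (adjusted p = 0.0566 to 0.109).

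**Figure D2:**
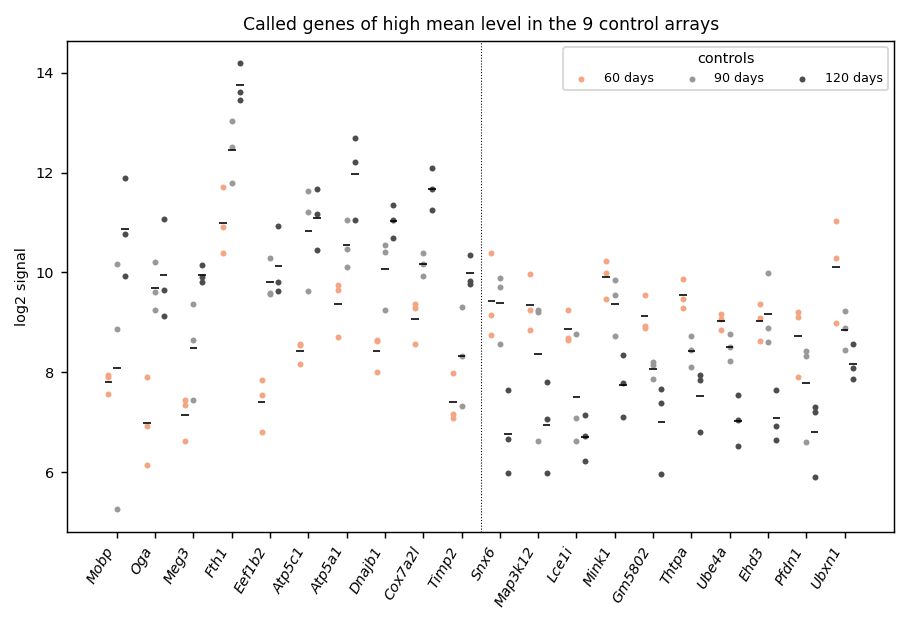
Log2 signal of the 10 genes with the largest increases (left of the dotted line) and the 10 with the largest decreases (right) among strongly expressed called genes whose 60-day and 120-day arrays did not overlap, 1 point per control array, coloured by age, with the mean of 3 arrays as a dash. Every 120-day point of Fth1 lies above its 60-day points, and every 120-day point of Snx6 below them.

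Genes were then read by function in 70 lists. The highest share of called members was in the ATP synthase, the rotary enzyme that makes ATP from the proton gradient across the inner mitochondrial membrane. Of its 18 measured genes 8 rose and 0 fell, 44.4% against 3.89% of all genes. Of the 18, 12 lay in the highest of the 5 level classes, in which 11.6% of all genes were higher. The list's median log2 difference was 0.68 against -0.22 over all genes. The median was 0.53 after quantile normalization and 1.13 after median centring. That no member fell depended on the processing. Under quantile normalization 6 members were called higher and 2 lower, and with the hybridization controls as covariate 8 and 2. With the 6 control arrays alone in the fit, 3 were higher and 0 lower. Atp5a1, the alpha subunit, had signals of 861, 799 and 416 at 60 days and 6589, 4746 and 2118 at 120 days, a 6.14-fold increase (2.62 ± 0.39, adjusted p = 0.00029). Atp5c1, the gamma subunit of the central shaft, read 382, 372 and 288 against 3277, 1404 and 2303 (2.67 ± 0.44). Neither overlapped between ages, but 1 of the 2 other probe sets of Atp5a1 and the other one of Atp5c1 had the opposite sign.

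The remaining ATP synthase genes that passed the test were separated by age as well. Atp5md, a small subunit of the membrane part, read 328, 999 and 244 at 60 days and 2653, 3358 and 1302 at 120 days (2.39 ± 0.44). Atp5e, the epsilon subunit, read 70.4, 53.6 and 110 against 169, 293 and 404 (1.86 ± 0.41). Atp5h, of the peripheral stalk, read 2771, 2413 and 1811 against 5261, 7254 and 5896 (1.41 ± 0.32, adjusted p = 0.0102), and its other probe set had the same sign. Atp5b, the beta subunit, was called from a probe set with low signals at 60 days (13, 6.3 and 11.7 against 390, 99.4 and 56.1, 3.72 ± 0.85). Atp5j, of the stalk, was higher by 1.17 ± 0.31 and Atp5g3, of the rotor ring, by 1.23 ± 0.36. Left out in turn, 60-day array 3 ended the calls of Atp5h (1.23, adjusted p = 0.0568) and Atp5j, 120-day array 1 those of Atp5b (2.92, adjusted p = 0.0827) and Atp5j, 120-day array 2 that of Atp5j, and any of the 6 that of Atp5g3 (adjusted p = 0.065 to 0.107). Without each array 5 to 7 genes of the list remained above the threshold, with 5 without 60-day array 3 or 120-day array 1, and with the Gapdh covariate 3 did.

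For the 8 of 18 ATP synthase genes called higher, the sequence around the start sites was searched for a motif. It was the core of the element bound by nuclear respiratory factor 1, a regulator of many respiratory genes. Whether these genes share a regulator was not tested. The core, read as GCGC, any base, then TGCGC, was sought on both strands in windows from 250 bases before to 50 after the start, with promoter sequences from RefSeq in assembly GRCm38.p6, and the motif and the genes shown were chosen after the values were seen. Of the 8 genes 7 were matched, with 9 windows, and 3 windows held the core, in Atp5c1, Atp5h and Atp5g3. The core was in 4.6% of the 32851 windows in the table, in 8.62% of windows of tested genes, in 10.2% of those of genes called higher, in 7.17% of those of genes called lower and in 12.3% of those in the highest of the 5 level classes. A match is a description of these letters and not a site of binding. The 2 upstream stretches that held it are printed 5′ to 3′ on the strand of the gene, with the match in capitals, for Atp5c1 (chr2:10080433-10080682, minus strand) and Atp5h (chr11:115419920-115420169, minus strand).
Atp5c1: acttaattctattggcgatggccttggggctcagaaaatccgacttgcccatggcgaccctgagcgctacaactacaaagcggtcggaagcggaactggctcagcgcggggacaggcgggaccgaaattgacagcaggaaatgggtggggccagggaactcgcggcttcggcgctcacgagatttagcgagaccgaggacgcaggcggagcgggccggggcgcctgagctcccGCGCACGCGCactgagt
Atp5h: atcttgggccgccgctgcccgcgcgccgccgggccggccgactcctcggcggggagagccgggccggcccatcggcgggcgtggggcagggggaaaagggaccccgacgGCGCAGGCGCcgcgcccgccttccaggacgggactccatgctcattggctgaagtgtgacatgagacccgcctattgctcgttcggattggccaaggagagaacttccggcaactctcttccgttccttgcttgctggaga

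**Figure D3:**
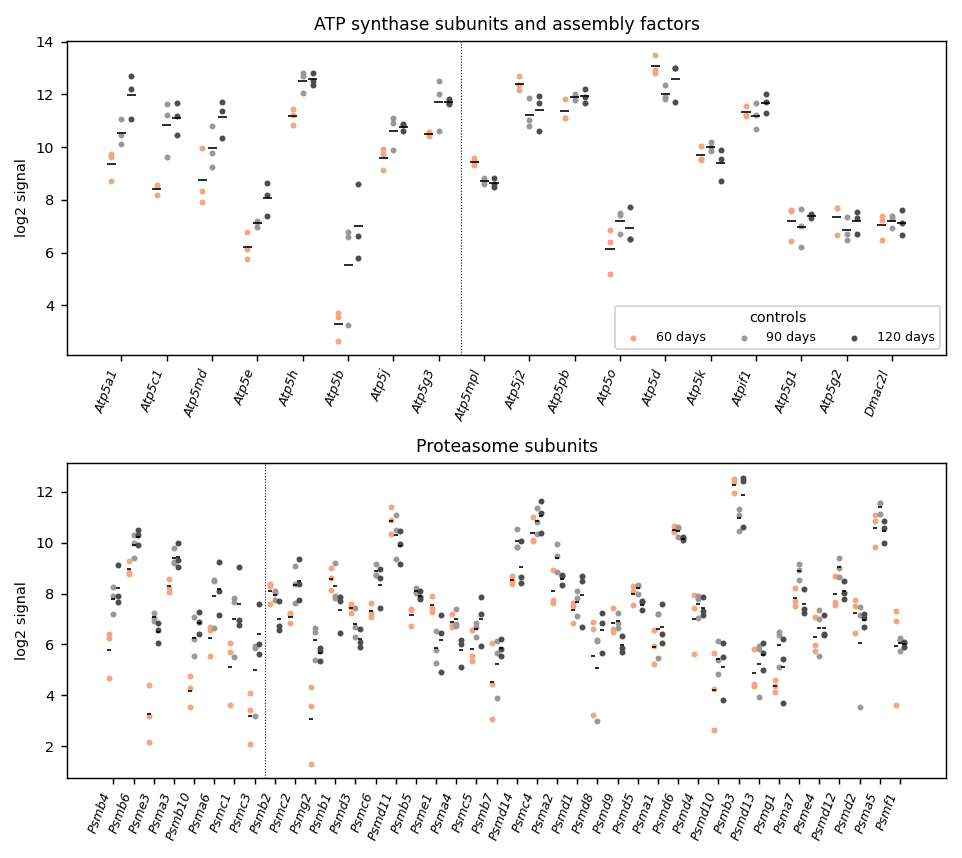
Log2 signal of every tested ATP synthase gene (upper panel) and proteasome gene (lower panel) on the 9 control arrays, 1 point per array, coloured by age, with the mean of 3 arrays as a dash and the called genes left of the dotted line. The 8 called ATP synthase genes and the 8 called proteasome genes have higher means at 120 than at 60 days.

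Counts in the lists below stand against 3.89% of all genes higher and 2.83% lower. In the highest level class these shares were 11.6% and 3.63%. Across the lists, the sign of a small median depended on scaling. Of the lists given below with a median under 0, the glutamate receptors, the immediate early genes and the erythroid markers stayed under 0 after both quantile normalization and median centring, and the others turned in at least 1 of the 2. Among those above 0, complex I (-0.02), dynein and dynactin (-0.14) and motor neuron markers (-0.04) turned after quantile normalization. Calls of single genes were lost under scaling as well, beside those given with their values. Quantile normalization ended the calls of Atf3, Atp5g3, Atp5j, Cox4i2, Cox5b, Cs, Cst3, Cx3cr1, Derl1, Dnajb2, Dynlt3, Esr2, Icam4, Iglv1, Kcnab2, Lhx4, Med28, Nckap1, P2ry12, Paip2, Pard3b, Psma3, Rab6b, Tbcb and Tmem263. Median centring ended those of Acss2, Atf3, Ccnh, Cox4i2, Cx3cr1, Dynlrb1, Eif2b2, Fau, Hsp90b1, Idh3g, Kcnc1, Kcnmb4, Lhx4, Nes, P2ry12, Pard3b, Pfdn1 and Ubxn1.

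**Figure D4:**
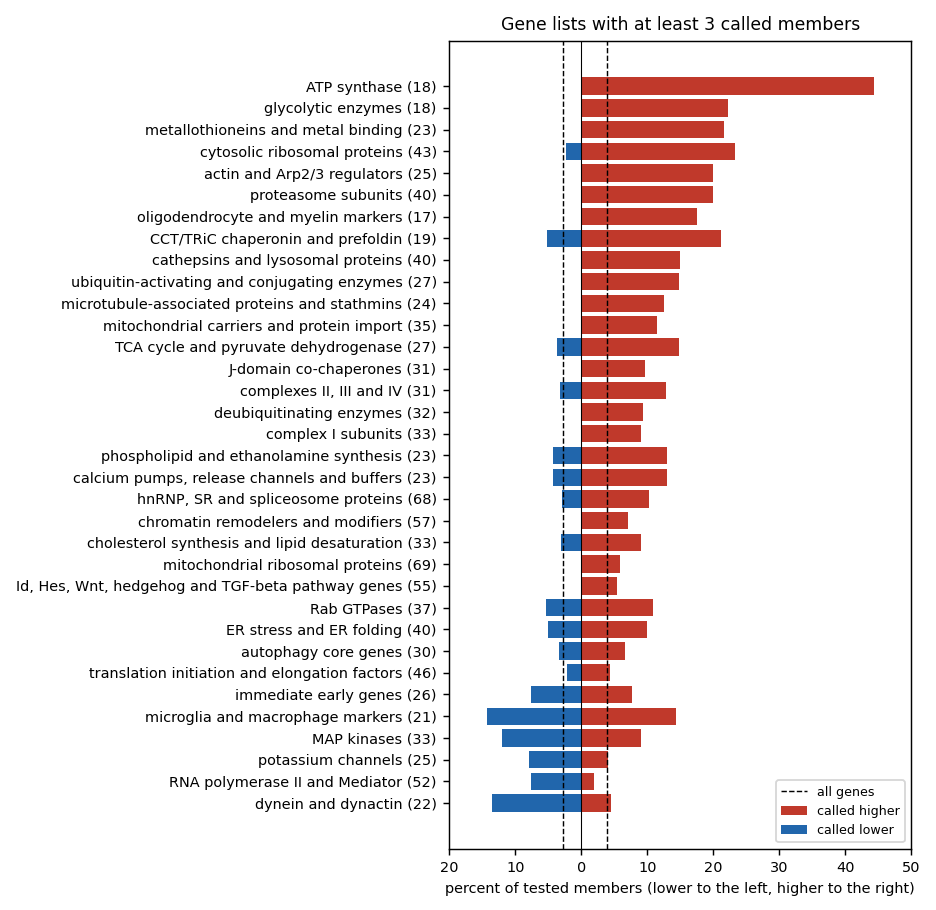
Percentage of tested members called higher (red, to the right) and lower (blue, to the left) at 120 days for the gene lists with at least 3 called members, with the number of tested members after each name and the shares over all 10051 genes, 3.89% higher and 2.83% lower, as dashed lines. The ATP synthase has the longest bar, 44.4% of 18 genes.

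In complexes II to IV of the respiratory chain, which feeds the ATP synthase, 4 of 31 genes rose (12.9%) and 1 fell, with a median of 0.11. Of the 31, 20 lay in the highest level class, so the share was near the 11.6% of that class. Cox7a2l, which joins complexes III and IV, had signals of 660, 628 and 378 at 60 days and 4342, 3285 and 2424 at 120 days (2.60 ± 0.35, adjusted p = 9.62e-05), and both of its other probe sets had the same sign. Cox17, the chaperone that hands copper to complex IV, read 775, 453 and 326 against 1733, 1588 and 1515 (1.73 ± 0.31). Cox4i1, a complex IV subunit, read 1386, 1523 and 1382 against 3165, 3717 and 4654 (1.41 ± 0.34), a call lost under quantile normalization (0.96, adjusted p = 0.125), while Cox4i2, its hypoxia-responsive alternative, read 85.8, 117 and 200 against 35.8, 53.0 and 24.4. The ages did not overlap for any of these, and Cox4i2 was called lower (-1.81 ± 0.51), a call lost without 60-day arrays 2 or 3 or 120-day arrays 1 or 3 (adjusted p = 0.0658 to 0.14). Cox5b was called higher by 1.13, with 2 of its 5 other probe sets of opposite sign, and lost its call without 60-day arrays 2 or 3 or 120-day arrays 2 or 3 (adjusted p = 0.0603 to 0.0997). In complex I, which oxidizes NADH, 3 of 33 genes rose (9.09%, median 0.19), and 29 of the 33 were in the highest level class. Ndufa3 read 386, 292 and 227 against 918, 1447 and 934 (1.87 ± 0.33, adjusted p = 0.0015) and held throughout. Ndufa1 (1.27) and Ndufs1 (2.03) did not hold without 60-day arrays 2 or 3 or 120-day array 2, and Ndufs1 also not without 120-day array 1 (adjusted p = 0.0567 to 0.131). Only 1 complex I gene passed without 120-day array 2.

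Enzymes of and around the TCA cycle gave a similar picture of single members. Of 27 genes listed for the TCA cycle and pyruvate dehydrogenase 4 rose and 1 fell (14.8% higher, median 0.76), with 14 of the 27 in the highest level class. Dlst, of the 2-oxoglutarate dehydrogenase complex, read 17.5, 13.7 and 16.3 at 60 days and 264, 118 and 104 at 120 days (3.23 ± 0.66, adjusted p = 0.00483), with its other probe set of opposite sign. The NADP-dependent isocitrate dehydrogenase Idh1 was higher (1.79 ± 0.43) and the citrate synthase Cs too, at 2355, 1954 and 1865 against 4009, 4718 and 4604 (1.11 ± 0.31). Idh3g, a subunit of the NAD-dependent enzyme, was lower, at 4656, 3866 and 8755 against 1552, 2118 and 2988 (-1.33 ± 0.33, its other probe set of opposite sign). Idh1 lost its call without 60-day array 3 (1.14, adjusted p = 0.0908), Idh3g without 60-day array 3 (-0.99, adjusted p = 0.0979) or 120-day array 1 (-1.10, adjusted p = 0.0769), and Cs without any array but 60-day array 1 (adjusted p = 0.0512 to 0.0967). Without 60-day array 3, 1 gene of the list was still called higher.

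Of 18 glycolytic genes and lactate carriers 4 rose and 0 fell (22.2% higher, median 0.51), with 14 of the 18 in the highest level class. Eno2, the neuronal enolase, read 452, 312 and 500 at 60 days and 5991, 1196 and 1189 at 120 days (2.31 ± 0.42, adjusted p = 0.00199) and held without each array. Pgk1, the first ATP-forming enzyme of the pathway, read 693, 344 and 418 against 2590, 1169 and 1207 (1.73 ± 0.39, 1 of 2 other probe sets of opposite sign), and lost its call without 120-day array 1 (1.36, adjusted p = 0.0566). Slc16a1, a lactate carrier, and Pkm, pyruvate kinase, were called higher by 3.67 and 1.14. The call of Pkm was lost without any of the 6 arrays (adjusted p = 0.054 to 0.112), and that of Slc16a1 without 60-day arrays 2 or 3 or 120-day arrays 1 or 2 (adjusted p = 0.0793 to 0.103). Of 35 mitochondrial carriers and import genes 4 rose and 0 fell (11.4% higher, median 0.26), with 15 of the 35 in the highest level class. Slc25a3, which brings phosphate to the ATP synthase, read 1218, 1178 and 610 against 4688, 4436 and 2221 (1.91 ± 0.36), and Slc25a36, a pyrimidine nucleotide carrier, rose by 1.83 ± 0.35. Both held without each array. The ADP and ATP exchanger Slc25a5 was called higher (2.94 ± 0.67), but 5 of its 7 other probe sets had the opposite sign and the call was lost without 60-day array 3 (1.87, adjusted p = 0.0666). Without 60-day array 3 the carrier list had 2 calls, and without 120-day array 1 the glycolytic list had 1. With the Gapdh covariate no glycolytic gene and no carrier passed.

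Ribosomal proteins, the protein part of the translation machinery, rose in 10 of 43 measured genes and fell in 1 (23.3% higher, median 0.52), with 30 of the 43 in the highest level class. Rps10 had signals of 394, 339 and 334 at 60 days and 757, 1429 and 2232 at 120 days (1.92 ± 0.31, adjusted p = 0.000632), with all 4 other probe sets of the same sign. Rplp2, an acidic protein of the large subunit stalk, read 122, 120 and 168 against 825, 461 and 538 (2.13 ± 0.39). Rps4x (1.81 ± 0.37) and Rps18 (1.70 ± 0.38) also rose, and these 4 genes did not overlap between ages and held without each array. The 1 member lower at 120 days was Fau, a fusion of a ubiquitin-like domain with a ribosomal protein (-1.09 ± 0.33), a call lost without any of the 6 arrays (adjusted p = 0.0503 to 0.142). Leaving out single arrays gave 5 to 11 ribosomal genes called higher, 5 without 60-day array 2, and the Gapdh covariate left 1. Ribosomal protein genes have many processed pseudogenes and near-identical copies, so their probe sets may report more than 1 locus. Among 46 translation factors 2 rose and 1 fell (median 0.28). Eef1b2, the exchange factor of elongation factor 1, read 232, 188 and 112 against 1959, 896 and 792 (2.72 ± 0.36, adjusted p = 9.62e-05) and kept its call under all 18 alternatives. Paip2, a repressor of poly(A)-binding protein, was called higher by 1.33 and Eif2b2, of the exchange factor for eIF2, lower by the fit (-1.45), and both lost their calls without 60-day arrays 2 or 3 or 120-day array 1, Paip2 also without 120-day array 3 and Eif2b2 without 120-day array 2 (adjusted p = 0.0539 to 0.21).

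Proteasome subunits, which form the barrel that degrades ubiquitin-tagged protein and the lids and activators on it, rose in 8 of 40 genes and fell in 0 (20%, median 0.64), with 19 of the 40 in the highest level class. Psmb6, a subunit with caspase-like peptide-cutting activity, read 613, 430 and 459 at 60 days and 950, 1462 and 1257 at 120 days (1.28 ± 0.29, adjusted p = 0.00898). Psmb4, of the same ring, read 76.3, 84.9 and 26.0 against 553, 203 and 236 (2.43 ± 0.49). Both rose without overlap and held without each array, but Psmb6 lost its call under quantile normalization (0.78, adjusted p = 0.0841). Psme3, an activator cap found in nuclei, was called at 21.4, 9 and 4.5 against 115, 95.1 and 66.6 (3.24 ± 0.78, its other probe set of opposite sign), a call lost without 60-day array 3 or 120-day array 1 (adjusted p = 0.0663 and 0.0563). Psma3 (1.17 ± 0.34) lost its call without 60-day arrays 2 or 3 or 120-day arrays 1 or 2 (adjusted p = 0.0633 to 0.164). The count of proteasome genes called higher fell to 2 without 60-day array 3 or 120-day array 1 and was at most 6 with any array left out, and it was 0 with the Gapdh covariate.

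Ubiquitin-conjugating enzymes, which load the tag, rose in 4 of 27 genes (14.8%), while the list's median was -0.03. Of the 27, 13 were in the highest level class. Ube2e2 read 202, 177 and 180 at 60 days and 1045, 387 and 675 at 120 days (1.80 ± 0.33, adjusted p = 0.0018) and held without each array. Ube2v1, a partner for lysine 63-linked chains, was called higher by 2.53, Ube2g2 of ER-associated degradation by 2.06 and Ube2d3 by 1.55 (2 of 4 other probe sets of opposite sign). All 3 lost the call without 60-day array 3 or 120-day array 1, Ube2v1 and Ube2g2 also without 60-day array 1, and Ube2g2 and Ube2d3 without 120-day array 2 (adjusted p = 0.0502 to 0.178), and without either array 1 gene of the list was called. Opposite to these, Ubxn1, a ubiquitin-binding cofactor of the segregase p97, read 1260, 508 and 2086 against 270, 381 and 233 (-1.93 ± 0.54), a call lost without 60-day array 1 or 3 or 120-day array 1 or 3 (adjusted p = 0.0797 to 0.151).

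Folding machines of the cytosol moved with single members. In the chaperonin CCT and its helper prefoldin 4 of 19 genes rose and 1 fell (21.1% higher, median 0.49), with 11 of the 19 in the highest level class. Cct7 had signals of 287, 369 and 285 at 60 days and 1750, 1060 and 1039 at 120 days (2.00 ± 0.30, adjusted p = 0.000339), and Cct5 read 225, 148 and 171 against 1021, 482 and 594 (1.90 ± 0.41). Both are subunits of the ring that folds actin and tubulin, showed no overlap and held without each array. Tbcb, a tubulin-folding cofactor, was called higher by 1.08 and Pfdn1 of prefoldin lower by the fit (-1.94). Tbcb lost its call without any array but 60-day array 1 (adjusted p = 0.0526 to 0.141), Pfdn1 without 60-day arrays 1 or 3 or 120-day array 1 (adjusted p = 0.0996 to 0.166), and the list had 2 genes called higher without 60-day array 3, 120-day array 1 or 120-day array 2.

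J-domain proteins, which recruit Hsp70 to its clients, rose in 3 of 31 genes (median 0.32). Dnajb1, the stress-inducible partner of Hsp70, read 394, 398 and 257 at 60 days and 2616, 2137 and 1661 at 120 days, a 6.13-fold increase (2.61 ± 0.35, adjusted p = 0.000113), though its other probe set had the opposite sign. Dnajc5, cysteine string protein of synaptic vesicles, read 221, 279 and 152 against 1254, 587 and 440 (1.70 ± 0.36), and 2 of its 3 other probe sets had the opposite sign. Dnajb2, a neuronal J-protein, was called higher by 1.13 and lost the call without any of the 6 arrays (adjusted p = 0.0543 to 0.17). Among 32 Hsp70, Hsp90 and small heat shock genes only Hspa9, the mitochondrial Hsp70, was called higher (1.5 ± 0.40) and Hsp90b1, the Hsp90 of the ER, lower (-1.39 ± 0.37), each with its other probe set of opposite sign. Each was called only with 60-day array 3 and 120-day array 1 both in the fit, and leaving out 120-day array 2 for Hspa9 or 60-day array 1 for Hsp90b1 also ended the call (adjusted p = 0.0636 to 0.139).

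In the ER list 4 of 40 genes rose and 2 fell (median -0.19). Canx, the lectin chaperone calnexin, read 450, 269 and 324 at 60 days and 1384, 1295 and 1288 at 120 days (1.96 ± 0.34, adjusted p = 0.0014), with both other probe sets of opposite sign. P4hb, protein disulfide isomerase, was called higher by 1.55 and Derl1, of the channel that exports misfolded protein, by 1.26 (2 of 3 other probe sets of opposite sign). P4hb and Derl1 lost their calls without 60-day array 3 or 120-day array 1 (adjusted p = 0.0502 to 0.0974). The members called lower were Hsp90b1 and the stress transcription factor Atf3 (90.2, 128 and 168 against 6.3, 56.7 and 16.5, -2.79 ± 0.86), and without 60-day array 1 or 3 or 120-day array 1 neither passed. The Atf3 call was lost without any array but 120-day array 2 (adjusted p = 0.0677 to 0.207).

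Lysosomal proteins rose in 6 of 40 genes and fell in 0 (15%, median 0.25), with 19 of the 40 in the highest level class. Lamp1, a main protein of the lysosomal membrane, had signals of 528, 481 and 543 at 60 days and 2199, 1768 and 1397 at 120 days, 3.40-fold higher (1.77 ± 0.28, adjusted p = 0.000668). Ctss, a cathepsin of microglia and macrophages that also counts among the microglial markers, read 213, 176 and 151 against 1288, 611 and 537 (2.07 ± 0.35). Both did not overlap and held without each array. The proteases Ctsd (1.68 ± 0.38) and Ctsb (1.80 ± 0.41) were called higher, Ctsd not without 60-day array 3 (1.21, adjusted p = 0.0604) and Ctsb not without 60-day array 1 (1.13, adjusted p = 0.0592), and both other probe sets of Ctsb had the opposite sign. The count for the list was 3 to 5 with an array left out, 3 without 60-day array 1, and 0 with the Gapdh covariate. Of 17 subunits of the vacuolar proton pump, which acidifies lysosomes and synaptic vesicles, 2 rose (median 0.65). Beside Atp6v1b2 this was Atp6v1g1, at 1509, 1329 and 859 against 4445, 3518 and 2372 (1.48 ± 0.31). Both kept their calls under all 18 alternatives, though 1 of the 2 other Atp6v1g1 probe sets had the opposite sign.

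Rab GTPases, which mark compartments of membrane traffic, rose in 4 of 37 genes and fell in 2 (median 0.35). Rab14, of the path between Golgi and endosomes, read 378, 215 and 177 at 60 days and 1657, 1193 and 971 at 120 days (2.35 ± 0.35, adjusted p = 0.000339). Rab7, of late endosomes and of retrograde axonal carriers, read 264, 227 and 240 against 943, 611 and 655 (1.57 ± 0.31). Both rose without overlap and without dependence on 1 array, while 1 of 3 other Rab14 probe sets and the other Rab7 probe set had the opposite sign. Rab31 (2.56), whose ages overlapped and whose other probe set had the opposite sign, and Rab6b (1.00) were called higher. Both lost the call without 60-day arrays 2 or 3 or 120-day arrays 2 or 3, and Rab6b also without 60-day array 1 (adjusted p = 0.0552 to 0.145). The members called lower were Rab12 (-1.59) and Rab8a (-2.41), and neither passed without any array but 120-day array 3.

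Genes of iron, zinc and copper handling rose in 5 of 23 and fell in 0 (21.7%, median 0.18), and 3 passed with the Gapdh covariate. Fth1 and Cox17 were among them. Slc39a6, a zinc importer, read 54.7, 60.5 and 18.7 at 60 days and 1160, 145 and 147 at 120 days (2.88 ± 0.61, adjusted p = 0.0062), with its other probe set of opposite sign. Mt3, the metallothionein of brain, read 43.1, 15.8 and 5.7 against 135, 116 and 181 (3.17 ± 0.69). The ages were separate for both, and both held without each array. Of 52 antioxidant enzymes 1 rose: Gpx1, the main glutathione peroxidase, at 422, 501 and 215 against 750, 1414 and 1467 (1.70 ± 0.37). It lost its call without 60-day array 3 (1.33, adjusted p = 0.056). Sod1 was not called (0.86, adjusted p = 0.354).

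The cytoskeleton gave calls in both directions. Among 7 intermediate filament genes 0 rose and 2 fell (median -0.16). Ina, alpha-internexin, an early partner of the neurofilament chains, had signals of 1191, 746 and 1297 at 60 days and 301, 374 and 471 at 120 days (-1.48 ± 0.34, adjusted p = 0.0105), with 1 of its 2 other probe sets of opposite sign. Nes, nestin of precursor cells and vessels, read 293, 324 and 424 against 40.2, 183 and 152 (-1.72 ± 0.52). The ages did not overlap, but Ina lost its call without 60-day array 3 (-1.33, adjusted p = 0.0544) or under median centring (-1.02, adjusted p = 0.0708) and Nes without any 60-day array or 120-day array 1 (adjusted p = 0.0668 to 0.238). The neurofilament chains Nefl (-0.34), Nefm (-0.16) and Nefh (0.25) and peripherin, Prph (0.75), did not pass the test. Of 24 microtubule-associated proteins and stathmins 3 rose (median -0.26). Stmn1, which binds free tubulin, read 1015, 1272 and 1067 against 4371, 3706 and 4911, 3.87-fold higher (1.95 ± 0.35, adjusted p = 0.0018), with its other probe set of the same sign. Clasp1 (1.77) and Stmn4 (1.77) were called higher and lost the call without 60-day array 3 or 120-day array 1, Clasp1 also without 60-day array 1 or 120-day array 2 and Stmn4 without 60-day array 2 or 120-day array 3 (adjusted p = 0.051 to 0.206). None of 13 tubulin genes was called (median 0.28).

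Transport motors gave calls in both directions. Of 22 dynein and dynactin genes, which carry cargo back to the cell body, 3 fell and 1 rose (median 0.05), and of 18 kinesins, which mostly carry cargo outward, 2 rose (median -0.15). Whether the 2 families differed from each other was not tested. Bicd2, the adaptor that links dynein to cargo, read 1942, 1582 and 1799 at 60 days and 258, 909 and 639 at 120 days (-1.74 ± 0.44, adjusted p = 0.0197, and -1.28, adjusted p = 0.0584 under median centring), with 1 of its 3 other probe sets of opposite sign. Dync1li1, a light intermediate chain, read 124, 118 and 177 against 57.9, 10.7 and 3 (-3.48 ± 0.84), and Dynlrb1, a roadblock light chain, was called lower too (-1.32 ± 0.38). Dynlt3, a light chain, was the member called higher (1.84 ± 0.54, its other probe set of opposite sign), and the ages overlapped for Dynlrb1 and Dynlt3. Without 60-day array 3 none of the 4 passed (adjusted p = 0.0578 to 0.243), and Bicd2 also not without 60-day array 1 or 120-day array 1 and Dync1li1 not without 120-day array 3 (adjusted p = 0.0518 to 0.117). Dynlrb1 was also lost without 60-day array 1 or 120-day arrays 2 or 3, and Dynlt3 without 120-day arrays 1 or 2 (adjusted p = 0.0845 to 0.243 over all fits that lost them). Klc1, a kinesin light chain, read 304, 204 and 167 against 2079, 884 and 556 (2.21 ± 0.41, adjusted p = 0.00199), held without each array and had 1 other probe set of opposite sign. Kif2a, which takes microtubules apart at their ends, was called higher by 2.04, with both other probe sets of opposite sign and a call lost without any array but 60-day array 1 (adjusted p = 0.0556 to 0.198).

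Actin regulators rose in 5 of 25 genes and fell in 0 (20%, median 0.46), with 15 of the 25 in the highest level class. Wasl, the neuronal activator of the Arp2/3 complex, read 305, 251 and 123 at 60 days and 1419, 2002 and 538 at 120 days (2.45 ± 0.51, adjusted p = 0.00592), and with Enah it held without each array, while 2 of its 3 other probe sets had the opposite sign. Nckap1, of the WAVE complex (1.26), and Marcks, which ties actin to the membrane (2.92, 2 of 5 other probe sets of opposite sign), were called higher and lost the call without 60-day array 3 or 120-day array 1, as well as 60-day array 2 and 120-day array 2 for Nckap1 and 120-day array 3 for Marcks (adjusted p = 0.0512 to 0.126). The list's count was 2 without 60-day array 3 or 120-day array 1 and 0 with the Gapdh covariate.

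Subunits of glutamate-gated channels, through which motor neurons receive most of their excitation, were all below 0 in log2 difference: 0 of 10 lay above 0 (median -1.28), and 2 passed the test. Weak genes tended below 0 in general. The list's median level, 5.6 on the log2 scale, lay in the level class next to the lowest, where the median of all genes was -0.43. Of the 10 genes, 3 lay in the highest level class. Gria2, the AMPA receptor subunit that keeps the channel closed to calcium, had signals of 422, 415 and 382 at 60 days and 122, 217 and 196 at 120 days (-1.23 ± 0.35, adjusted p = 0.0354), with its other probe set of opposite sign. Grin2a, an NMDA receptor subunit, read 108, 111 and 124 against 18.3, 50.2 and 3.5 (-2.95 ± 0.86, adjusted p = 0.0392). Neither overlapped between ages. Gria2 lost its call without any 60-day array or 120-day array 1 (adjusted p = 0.0709 to 0.141), Grin2a without any array but 120-day array 2 (adjusted p = 0.0754 to 0.16), and both were lost under median centring (Gria2 -0.77, adjusted p = 0.149, and Grin2a -2.49, adjusted p = 0.0692), Grin2a also under quantile normalization (adjusted p = 0.084). The list's median stayed below 0 under both scalings, at -1.13 and -0.82. The other 8 were between -0.43 (Grik1) and -2.06 (Grin2c), among them Gria1 (-1.36), Gria3 (-0.83), Gria4 (-0.46), Grin2b (-1.71) and Grin2d (-1.33), and none passed.

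Of 12 genes of GABA and glycine receptors and gephyrin 0 were called (median 0.21), and of 16 voltage-gated sodium and calcium channels 0 (median -0.02). Potassium channels gave 1 higher and 2 lower among 25 (median -0.21). Kcnab2, an auxiliary subunit of Shaker-type channels, read 251, 228 and 312 at 60 days and 501, 568 and 717 at 120 days (1.17 ± 0.31). Kcnmb4, the neuronal beta subunit of the calcium-activated BK channel, read 400, 333 and 317 against 198, 116 and 126 (-1.29 ± 0.35), and Kcnc1, a channel of fast-firing neurons, 305, 219 and 406 against 76.7, 169 and 140 (-1.30 ± 0.37). No ages overlapped here, and the other Kcnab2 probe set had the opposite sign. All 3 lost the call without 60-day array 1, Kcnab2 and Kcnmb4 also without 60-day array 2 or 120-day arrays 2 or 3, Kcnmb4 and Kcnc1 without 60-day array 3, and Kcnc1 without 120-day array 1 (adjusted p = 0.0514 to 0.152). Nsf, the ATPase that takes SNARE complexes apart, was the single member called among 33 synaptic vesicle and SNARE genes (164, 225 and 249 against 1458, 520 and 406, 1.69 ± 0.43, its other probe set of opposite sign). Its call was lost without 60-day array 1 or 120-day array 1 (adjusted p = 0.0645 and 0.123).

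Early-response transcription factors moved apart. Jund, a constant partner in AP-1, had signals of 996, 1147 and 1352 at 60 days and 259, 493 and 429 at 120 days, 3.04-fold lower (-1.61 ± 0.30, adjusted p = 0.00229), and held without each array. Fos, the inducible AP-1 partner and a marker of activity, read 136, 62.2 and 16 against 410, 202 and 188 (2.29 ± 0.53, adjusted p = 0.0117). It lost its call without 60-day array 3 (1.45, adjusted p = 0.0745) or 120-day array 1 (1.93, adjusted p = 0.0622). Ier3, a stress-induced survival gene, read 53.9, 118 and 87.9 against 651, 317 and 243 (2.16 ± 0.39) and kept its call under all 18 alternatives. With Atf3 this made 2 of 26 immediate early genes higher and 2 lower.

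In MAP kinase signalling 3 of 33 genes rose and 4 fell (median 0.45). Map2k4, which activates the stress kinases JNK and p38, read 302, 144 and 123 at 60 days and 484, 615 and 491 at 120 days (1.59 ± 0.32, adjusted p = 0.00496) and kept its call under all 18 alternatives, with its other probe set of opposite sign. Mapk8ip3, the JNK scaffold that also rides on kinesin, was called higher (3.35 ± 0.74, its other probe set of opposite sign), not without 60-day array 2 (2.5, adjusted p = 0.0517). Sos2 rose, Sos1 fell and Map3k12 was called lower, as given above, and the other members called lower were Map3k14 (-1.38) and the adaptor Grb2 (-1.15). Without 60-day array 2 or 3 or 120-day array 1, 1 member was called lower. Of 33 insulin, mTOR and FoxO genes the 1 called was Deptor, an inhibitor of mTOR, at 664, 307 and 651 against 149, 118 and 170 (-1.83 ± 0.35, adjusted p = 0.00257), and it held under all 18 alternatives. In the list of Id, Hes, Wnt, hedgehog and TGF-beta genes 3 of 55 rose: Id2, Ptch1, the receptor for hedgehog (6.5, 17 and 49.1 against 546, 156 and 126, 3.65 ± 0.67), and Smad1 (2.08 ± 0.49). Smad1 lost its call without 60-day array 3 or 120-day array 1 (adjusted p = 0.0807 and 0.0858).

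Sterol and fatty acid genes had 3 higher and 1 lower of 33 (median 0.14). Dhcr7, the last enzyme of cholesterol synthesis, read 42.9, 153 and 13.5 at 60 days and 351, 452 and 348 at 120 days (3.10 ± 0.52, adjusted p = 0.00116). Scd2, the desaturase of brain, read 437, 345 and 382 against 1013, 1153 and 1457 (1.63 ± 0.36), with both other probe sets of opposite sign. Both held without each array, and Dhcr7 under all 18 alternatives, while Scd2 was lost under quantile normalization (1.15, adjusted p = 0.0658). Insig2, which holds back sterol synthesis, was called higher (1.72, 1 of 2 other probe sets of opposite sign) and Acss2, which makes acetyl-CoA from acetate, lower (-1.17). Insig2 lost its call without 60-day array 3 or 120-day array 1 (adjusted p = 0.061 and 0.0566) and Acss2 without any array but 60-day array 1 (adjusted p = 0.0513 to 0.132). In the apoptosis list of 32 genes, Bcl2l11, the death promoter Bim, read 192, 259 and 129 against 37.1, 69.1 and 47.0 (-1.91 ± 0.42, adjusted p = 0.00844, 1 of 2 other probe sets of opposite sign), and Bok, a relative of Bax, 12.4, 23.7 and 30.9 against 80.2, 122 and 174 (2.52 ± 0.57). Both separated the ages and held without each array, and they were the only 2 called.

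RNA processing and transcription were mixed. Of 68 splicing proteins 7 rose and 2 fell (median -0.10). Ewsr1, an RNA-binding protein of the FET family, read 476, 609 and 347 at 60 days and 1107, 1284 and 1385 at 120 days (1.43 ± 0.30, adjusted p = 0.00633). Hnrnpdl read 594, 653 and 324 against 2825, 1915 and 939 (1.78 ± 0.38), with all 4 other probe sets of the same sign. Both held without each array, though Ewsr1 was lost under quantile normalization (0.94, adjusted p = 0.0651), while the spliceosome proteins Snrpg (1.56) and Snrpa1 (1.77) lost their calls without 60-day array 3 (adjusted p = 0.0563 and 0.0697), and Snrpa1 also without 120-day array 1 (1.35, adjusted p = 0.0726). The list had 3 to 8 genes called higher with an array left out, 3 without 60-day array 3, and 0 with the Gapdh covariate. It had 0 called lower without 60-day array 2 or 120-day array 1. Of 52 genes of RNA polymerase II and Mediator 4 fell and 1 rose (median -0.16). Ccnh, cyclin H of the kinase that starts transcription, read 2263, 1346 and 1894 against 484, 1002 and 718 (-1.35 ± 0.36), and the Mediator genes Med24 (-3.04) and Med14 (-3.43) were called lower and Med28 higher (0.96). Ccnh lost its call without 60-day arrays 1 or 3 or 120-day array 1, Med24 without 60-day array 3 or 120-day array 2, Med14 without 60-day arrays 1 or 2 or 120-day array 1, and Med28 without any of the 6 (adjusted p = 0.0532 to 0.14). The list had 1 gene called lower without 60-day array 3 or 120-day array 1. Of 57 chromatin genes 4 rose (median -0.11). Kdm3a, a histone H3 lysine 9 demethylase, read 9.4, 5.1 and 4.7 against 61.8, 79.8 and 64.8 (3.49 ± 0.75, adjusted p = 0.0073) and held without each array, and without 60-day array 3 it was the 1 gene of the list still called.

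Of 17 oligodendrocyte markers 15 lay above 0 (median 0.85), 3 rose (17.6%) and 0 fell, with 11 of the 17 in the highest level class. Mobp, a protein of compact myelin, had signals of 240, 247 and 190 at 60 days and 3812, 977 and 1752 at 120 days, 8.33-fold higher (3.06 ± 0.76, adjusted p = 0.0187). Mbp, myelin basic protein, read 6253, 4286 and 5811 against 9967, 12751 and 18709 (1.31 ± 0.38, adjusted p = 0.039), with 1 of 7 other probe sets of opposite sign. The third was Car2, carbonic anhydrase of oligodendrocytes (1.90 ± 0.58). The ages did not overlap, but Mobp lost its call without 60-day array 3 (2.94, adjusted p = 0.064) or 120-day array 1 (2.54, adjusted p = 0.0931), and Mbp without any array but 120-day array 1 (adjusted p = 0.0598 to 0.13). Car2 lost its own without any array but 60-day array 3 (adjusted p = 0.0525 to 0.214), and Mbp also lost its own under quantile normalization (1.03, adjusted p = 0.0929), while no oligodendrocyte marker passed with the Gapdh covariate.

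Microglial markers split in direction, with 3 of 21 higher and 3 lower (median -0.39). Tyrobp, the adaptor of the Trem2 receptor, read 10.5, 17.2 and 33.8 at 60 days and 97.5, 152 and 353 at 120 days (3.25 ± 0.58, adjusted p = 0.00174), and with Ctss it held without each array. Ly86 was called higher by 2.89 and lost the call without any of the 6 arrays (adjusted p = 0.0633 to 0.076). The genes called lower were C1qa, of complement (113, 70.0 and 158 against 28.4, 16.4 and 34.7, -2.09 ± 0.48), and the receptors Cx3cr1 (157, 97.2 and 127 against 19.3, 45.4 and 30.3, -2.06 ± 0.57) and P2ry12 (-2.93 ± 0.87). Without 60-day array 3 none of the 3 passed, with C1qa at -1.82 (adjusted p = 0.0561), Cx3cr1 at -2.05 (0.0789) and P2ry12 at -3.09 (0.0784). Cx3cr1 was also lost without 60-day array 1 or 120-day arrays 1 or 3 and P2ry12 without 60-day arrays 1 or 2 or 120-day arrays 2 or 3 (adjusted p = 0.0562 to 0.138).

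Other cell markers gave few calls. Among 17 interneuron markers 2 were higher: Gad1, which makes GABA, at 61.1, 66.0 and 12.3 against 599, 151 and 141 (2.67 ± 0.73, adjusted p = 0.0286), and Penk, the enkephalin precursor (2.21 ± 0.55). Neither passed without 60-day array 3 or 120-day array 1 (adjusted p = 0.0817 to 0.159), and the other Gad1 probe set had the opposite sign. Of 22 motor neuron markers 1 was called, the LIM factor Lhx4, lower at 120 days (240, 176 and 130 against 47.7, 13.5 and 94.6, -2.16 ± 0.63), a call lost without any array but 120-day array 3 (adjusted p = 0.064 to 0.174). Isl1, a LIM factor of motor neurons, was at 35.2, 55.5 and 15.1 against 60.1, 85.0 and 61.4 (1.14, adjusted p = 0.251). Of 20 astrocyte markers 15 lay above 0, with a median of 0.68 against -0.22 over all genes, and 10 were in the highest level class. The 1 called higher was the cystatin Cst3 (1.67 ± 0.49), not without any array but 120-day array 2 (adjusted p = 0.0613 to 0.117). After median centring 6 astrocyte markers were called higher and with the hybridization covariate 4. Under quantile normalization or with the Gapdh covariate 0 were. Gfap differed by 0.41 (adjusted p = 0.695) and overlapped between ages. Of 18 endothelial, 4 ependymal and 4 erythroid markers 0 were called, with medians of 0.18, 0.10 and -2.18, and Pecam1 of endothelium was at -2.76 (adjusted p = 0.141). Lists of 17 circadian clock genes (median 0.01), 37 DNA repair genes (0.14) and 17 mouse orthologues of genes mutated in amyotrophic lateral sclerosis (0.15) held 0 calls as well.

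The controls of 90 days share no animals with the other ages but are compared with the same arrays, so their values are given side by side. From 60 to 90 days 153 genes passed (1.52%, and 1.61% of probe sets): 132 were higher (1.31%) and 21 lower (0.209%), and from 90 to 120 days 90 genes passed (0.895%, and 1.04% of probe sets), 53 higher (0.527%) and 37 lower (0.368%). Without adjustment 2257 probe sets had p below 0.05 from 90 to 120 days (13.6%) and 2454 from 60 to 90 days (14.8%). The ATP synthase list had a median log2 difference of 0.72 from 60 to 90 days and of 0.23 from 90 to 120 days. Proteasome subunits were at 0.75 and -0.09, and ribosomal proteins at 0.26 and 0.46. Oligodendrocyte markers stood at -0.13 and 0.91. Atp5c1 read 3157, 2374 and 797 at 90 days, in the range of the 120-day arrays for 2 of the 3 animals, while Lamp1 read 850, 1004 and 680 and Jund 688, 622 and 757, between the other ages on every array.

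In G93A animals the same span of age was measured on other arrays. From 60 to 120 days 189 genes passed (1.88%), of which 83 rose (0.826%) and 106 fell (1.05%). The 391 genes higher in controls had a median difference of 1.87 in controls and 0.03 in G93A animals, and 202 of them (51.7%) had the same sign in G93A, against 44.9% of all genes. The 284 lower genes had medians of -2.02 and -0.43, and 202 of them (71.1%) had the same sign, against 55.1% of all genes. Called in both genotypes were 20 higher genes (5.12% of the control calls and 24.1% of the G93A calls) and 11 lower genes (3.87% and 10.4%), and 2 genes higher in controls were lower in G93A. Those genes were chosen on the control arrays, which alone makes the control medians the more extreme. The median log2 level of the 391 genes was 6.83, 7.91 and 8.57 in controls of 60, 90 and 120 days and 7.95, 8.33 and 8.07 in G93A animals of the same ages.

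**Figure D5:**
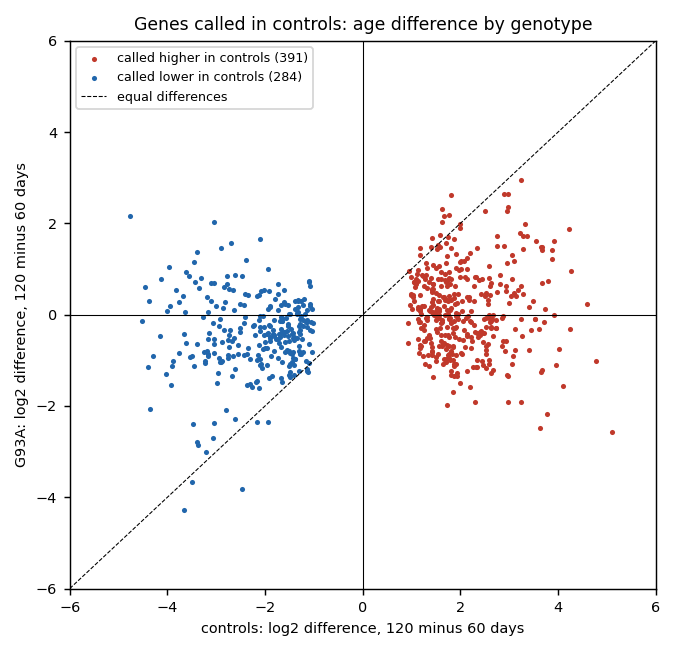
Log2 difference, 120 minus 60 days, in G93A animals (vertical axis) against that in controls (horizontal axis) for the 391 genes called higher (red) and the 284 called lower (blue) in controls, with a dashed line where both differences are equal. The genes called higher in controls have a median of 1.87 on the horizontal and of 0.03 on the vertical axis.

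The difference between the genotypes in their change with age was tested directly, as an interaction in limma. It passed for 334 probe sets (2.02%), of which 291 had the higher change in controls (1.76%) and 43 the lower (0.26%), and for 210 genes (2.09%), 188 higher (1.87%) and 22 lower (0.219%), while 2870 probe sets had an unadjusted p below 0.05 (17.3%). Without 60-day control array 3 it passed for 108 probe sets, without 120-day control array 1 for 78, and without 120-day control array 3 for 546. Without the trend in mean level it passed for 34 probe sets, with the hybridization controls as covariate for 32, with the Gapdh covariate for 251 and after median centring for 634. Atp6v1b2 changed by 5.10 in controls and -2.57 in G93A animals, a difference of 7.68 ± 1.12 (adjusted p = 0.00114). Etnk1 changed by 4.77 and -1.01, Oga by 2.96 and -1.32, Tsc22d1, a leucine zipper gene, by 2.52 and -1.17 (1 of 5 other probe sets of opposite sign), and Emc7, of the complex that inserts proteins into the ER membrane, by 3.08 and -0.90. On the other side stood Zfp189 (-4.78 and 2.16), Mapkbp1, a JNK-binding protein (-2.90 and 1.45, its other probe set of opposite sign), the proton channel Hvcn1 (-2.82 and 3.17), the polarity gene Pard3b (-2.09 and 1.67) and the dipeptidase Cndp2 (-0.70 and 1.39). Of these, Hvcn1 and Cndp2 were not called in controls (adjusted p = 0.0684 and 0.207), and Pard3b lost its control call without 60-day array 2 or 3 or 120-day array 1 or 2 (adjusted p = 0.09 to 0.113). These genes were picked by their interaction, which contains the 60-day arrays of both genotypes. That choice alone favours a difference at 60 days, so the next values are not a separate finding. At 60 days the limma difference, G93A minus control, was 4.07 for Atp6v1b2 (adjusted p = 0.0167) and 4.28 for Etnk1 (0.00216). It was 2.91 for Oga (0.00294), 2.54 for Emc7 (0.00294) and 1.46 for Tsc22d1 (0.0867). For Zfp189, Mapkbp1, Hvcn1, Pard3b and Cndp2 it was -3.89, -2.19, -2.29, -1.46 and -1.53, and only Cndp2 passed among them (0.0335).

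Of the 18 ATP synthase genes 6 had an interaction that passed, and the list's median was 0.68 in controls and -0.40 in G93A animals. Atp5a1 changed by 2.62 in controls and -0.30 in G93A animals (interaction 2.91, adjusted p = 0.00817), whereas Atp5e changed by 1.86 and 1.66 (0.20, adjusted p = 0.896). In proteasome subunits 3 of 40 passed, with medians of 0.64 and -0.45. Of 43 ribosomal protein genes 1 passed, with medians of 0.52 and 0.45, and of 17 oligodendrocyte markers 0, with medians of 0.85 and 0.48. Whether the lists differed from each other was not tested. Mbp changed by 1.31 and 1.03 and Tyrobp by 3.25 and 2.94, with interactions of 0.28 (adjusted p = 0.837) and 0.30 (adjusted p = 0.89), which do not show that the changes were equal. Gfap, the filament of reactive astrocytes, changed by 0.41 in controls and by 3.29 in G93A animals (interaction -2.89, adjusted p = 0.0603).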

How the data were processed

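RNA from 18 animals was hybridized to 1 single-colour oligonucleotide array each, in 6 groups of 3 taken from the sample titles. The authors deposited a linear signal intensity for every probe set, and per the submitters' processing notes they come from MAS5. Version and scaling target: not given in the sources used here. No further normalization was applied for the values reported.

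Signals under 1 were set to 1 (323 of 136140 values on the 6 arrays compared) and put on the log2 scale. Of 22690 probe sets, 64 controls were left out, and 16565 with a signal above the array's median on at least 3 arrays were tested. Of the probe sets, 20380 carry 1 gene symbol in the platform annotation, 691 several and 1555 none, and 20351 were matched to a RefSeq gene table of GRCm38.p6. For a gene with several tested probe sets, the one with the highest mean level was used. limma 3.58.1 in R 4.3.3 fitted the 6 group means over all 18 arrays with a trend in mean level (12 residual degrees of freedom). P-values were two-sided and adjusted by Benjamini-Hochberg over all probe sets, with adjusted p below 0.05 as a call. They measure the spread between 3 animals per group. The method was tested on simulated data.

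The comparison, the 70 gene lists and the naming rule (15 genes per direction with the largest change among called genes without overlap, up to 4 members per list, fixed markers, and 5 per direction for the difference from G93A) were chosen with earlier results of these data known. Atp5h, Atp5b, Atp5j and Atp5g3 and the strongly expressed genes were chosen after their values were seen. Single array measures were compared with exact permutation tests, two-sided. Sample numbers in the titles did not pair the arrays: deviations from the group means correlated at 0.03, 0.02 and 0.07 for the 3 numbers. Alternatives were quantile normalization, median centring, log2 of signal plus 16, no filter, a filter on 9 arrays, no trend, a Gapdh or hybridization covariate, array weights, the number as a block, 6 or 9 control arrays alone, each of the 6 arrays left out, and the mean over a gene's probe sets, the last of which was chosen after seeing the data.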

Additional observations from a re-analysis of the deposited data

Results flagged for a closer look

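The change from 60 to 120 days differed between controls and G93A animals, by limma's interaction test at an adjusted p below 0.05, for 291 probe sets with the higher change in controls and 43 with the lower. Values in parentheses are the log2 change in controls minus that in G93A animals. Most named genes were chosen by their change on the control arrays, which also enter this difference. That choice alone favours differences with the sign of the control change, so the functions listed here follow in part from it. Among named genes of energy metabolism and mitochondria, the change lay higher in controls for Dlst (5.15), Atp5c1 (3.14), Slc25a3 (3.00), Atp5a1 (2.91), Atp5md (2.78), Slc25a36 (2.69), Cox7a2l (2.60), Ndufa1 (2.36), Atp5g3 (2.12), Atp5h (2.02), Cox17 (2.01) and Atp5j (1.83). For protein synthesis, folding and degradation this held for Emc7 (3.98), Eef1b2 (3.02), Psmb4 (2.83), Hspa9 (2.5), Dnajc5 (2.45), Paip2 (2.22), Cct5 (2.19), Dnajb1 (1.99), Canx (1.95), Psma3 (1.90) and Derl1 (1.84). For membrane traffic, lipid and metal handling it held for Atp6v1b2 (7.68), Etnk1 (5.79), Slc39a6 (3.46), Rab14 (2.85) and Insig2 (2.39). In the cytoskeleton and axonal transport it held for Enah (4.55), Wasl (3.46), Klc1 (2.70) and Clasp1 (2.46). Among genes of signalling, transcription and RNA it held for Sos2 (5.68), Tceal1 (5.05), Ptch1 (4.91), Ddx5 (4.37), Oga (4.28), Id2 (3.91), Tsc22d1 (3.69), Selenoh (3.05), Hnrnpdl (2.77), Rbbp7 (2.66), Ier3 (2.18) and Map2k4 (1.88). It also held for the neuronal surface gene Lrrn1 (5.95) and the interneuron marker Gad1 (3.87). The change lay lower in controls for Cndp2 (-2.10), Bicd2 (-2.40), C1qa (-2.62), Ubxn1 (-2.93), Pard3b (-3.76), Mapkbp1 (-4.35), Hvcn1 (-5.98) and Zfp189 (-6.93). The 2 changes being compared share no array. Atp6v1b2, Etnk1, Oga, Emc7 and Cndp2 also differed between the genotypes at 60 days, as given above. Those 60-day arrays enter the interaction by which these genes were picked, so this is not a separate finding. The number of probe sets that passed, 334, was 251 with the Gapdh ratio as covariate, 34 without the trend in mean level and 32 with the hybridization controls as covariate. The part of other cells in these differences was not tested.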

How the results depend on the processing

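As reported, 1112 probe sets differed between 120 and 60 days in controls, 391 genes were higher, 284 lower, and 334 probe sets differed from the change in G93A animals. Without a trend in mean level these counts were 549, 162, 142 and 34. With the Gapdh ratio as covariate they were 143, 51, 18 and 251, with hybridization controls as covariate 1803, 609, 485 and 32, and with array weights 667, 245, 162 and 281. With the 6 control arrays alone the first 3 were 331, 137 and 55, and with the 9 alone 485, 188 and 98. After median centring 860 genes were higher, 95 lower and 634 probe sets differed from G93A. The mean over all probe sets of a gene gave 246 genes higher. With 1 of the 6 arrays left out the counts were 532 to 1024 probe sets, 205 to 379 genes higher, 95 to 282 lower and 78 to 546 differing from G93A. The replicate number as a block gave 1118 probe sets, and the numbers did not pair the arrays. No called probe set changed sign under these settings, but signs were not compared for the mean over the probe sets of a gene. The sign could not change where only the filter, the trend, the replicate block or the use of arrays outside the comparison differed. Those settings leave the difference of the group means as it was. Of 177 followed calls 29 held under all 18 alternatives, and 50 were lost under quantile normalization, centring or a constant of 16. Among genes not called, Gfap ranged from -0.017 (without 120-day array 3, the sign turned) to 0.79 with 1 array left out, and Nefl turned to 0.12 under centring and 0.42 with the Gapdh covariate. The Gapdh covariate was chosen with earlier results known. The cause of these shifts was not tested. Signals near background limit the measurement: 114 of the 284 lower genes had a mean signal under 30 at 120 days.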
